A study of Mus musculus with 6 samples.

Results

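The Rab GTPases are a family of small GTP-binding proteins, each tied to its own set of membranes. The protein-coding rows of the expression table were mapped to symbols with GENCODE mouse release 21, and a gene was taken as a member when its symbol was Rab followed by a number and at most a letter and a digit. This gave 55 genes of the 24354 in the table, out of 59 such genes in the annotation. Rab38, Rab39, Rab44 and Rab9b were not analysed here. The members were grouped by known role into transport between the endoplasmic reticulum (ER) and the Golgi, post-Golgi and regulated secretion, early endocytosis, late endosomes with lysosomes and autophagy, recycling endosomes, and cilium or other roles.

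A Rab protein carries a geranylgeranyl lipid tail, is delivered to a membrane, and is switched on there by an exchange factor that loads GTP and off by a GTPase-activating protein. In its GTP form it recruits effectors such as tethers, motors and coat adaptors, after which GDP dissociation inhibitor takes it back into the cytosol. In Sertoli cells, endocytosis and recycling of junction proteins are known to take part in the turnover of the blood-testis barrier, and Rab13 is known from epithelial cells as a Rab of tight junction traffic.

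RNA-seq was done on the established mouse line TM4, derived from Sertoli cells, which nurse germ cells in the testis. The control group, whose treatment the labels do not detail, comprised 3 libraries and the exposed group 3 libraries after culture with aluminium chloride (AlCl3) at 100 nM, and all were taken at day 30. No genotype change is given for either group, and whether the controls received a vehicle, or whether replicates were separate cultures, is not given in the sources used here, so the p-values rest on a spread between libraries that may be only technical. The question asked by the design is which mRNAs differ after long AlCl3 exposure.

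Reads in genes, as recovered from the steps of the deposited values, numbered between 13381191 and 17339432 per library, the lowest being AlCl3 2. Several defining Sertoli markers were near 0 in these cells, with a mean of 0.0812 FPKM (fragments scaled by gene length and library size) for Wt1 and 0.110 FPKM for Amh, while Gata4 had means of 11.6 FPKM in controls and 6.33 FPKM in AlCl3 and Inhbb of 72.1 and 46.0 FPKM. Of 7 Sertoli markers tested 4 fell (Gata4, Inhbb, Inha and Dhh) and 2 rose. Those that rose were Sox9, with means of 1.01 FPKM in controls and 1.61 FPKM in AlCl3, and Gdnf, with 1.05 and 1.83 FPKM. The 11 Sertoli markers in the table, with Inhbb leading, summed to 81.5 to 117 FPKM in controls and 62.1 to 64.5 FPKM in AlCl3, with no overlap. The extraction text speaks of retinas, but 5 retina markers summed to no more than 0.261 FPKM in any library, and germ cell markers to no more than 0.0953 FPKM. The summed level of 6 peritubular and smooth muscle markers, of which Acta2 and Myl9 made up most and Myh11 was near 0, ran from 672 to 705 FPKM in controls and from 282 to 320 FPKM in AlCl3. That of 5 macrophage and leukocyte markers, with Csf1r and Aif1 near 0 and Cd14 leading, ran from 8.18 to 10.1 FPKM in controls and from 31.0 to 33.4 FPKM in AlCl3. The part of these in the results below was not tested. In such bulk libraries fewer cells of a type and less RNA per cell cannot be told apart.

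Of the 55 Rab genes, 40 had a mean of at least 1 FPKM over the 6 libraries and were tested, and 15 were below that level. In AlCl3, 9 rose and 13 fell, and 18 did not pass (limma on log2(FPKM + 1), Benjamini-Hochberg adjusted p under 0.05 over all genes tested). The share that passed, 55.0%, lies near the 61.3% of all 11202 genes that passed. Higher calls made up 22.5% of the Rab genes against 31.2% of all genes, and lower calls 32.5% against 30.2%. Groups did not overlap in 25 of the 40 genes, or 62.5%, against 66.1% of all genes. The median log2 fold change of FPKM + 1 was -0.03 for the Rab genes and 0.03 for all genes tested.

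On the FPKM + 1 scale, 4 called Rab genes had a log2 fold change of at least 1 in size, which is 10.0% of the 40 tested against 21.3% of all genes. Those 4 were Rab3d, Rab6b and Rab20, which fell, and Rab31, which rose. With a pseudocount of 0.1 there were 6, with Rab30 and Rab40c added, against 28.2% of all genes. The fit of recovered reads gave 7, with Rab27b as well, against 28.9% of all genes. The summed level of all Rab genes stayed between 980 and 1031 FPKM over the 6 libraries. Single members therefore moved within a family total with a control mean of 1008 ± 25.5 FPKM and an AlCl3 mean of 1024 ± 4.77 FPKM (SD, n = 3 each). The FPKM of all genes tested summed to between 391707 and 449356 in controls and between 356425 and 406242 in AlCl3. The steady Rab sum thus holds on the FPKM scale and not as a share of that total.

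**Figure D1:**
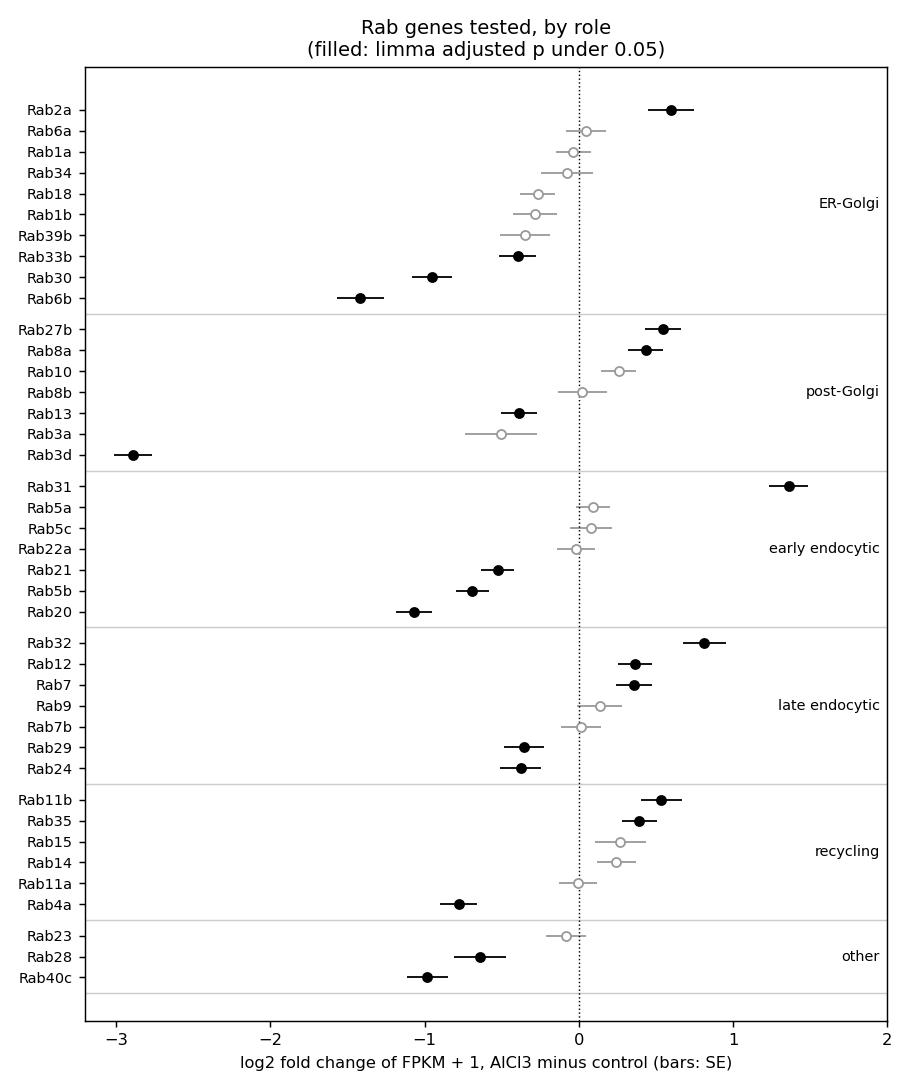
Log2 fold change of FPKM + 1 (AlCl3 minus control, horizontal axis) of the 40 Rab genes tested, by role, with bars of 1 standard error and filled points for limma adjusted p under 0.05. Rab3d lies far to the left at -2.89 and Rab31 far to the right at 1.36, while most other members lie within 1 of zero.

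To show the DNA in front of the members with the largest changes, 180 bases were taken from the strand of each gene, from 250 to 71 bases before the RefSeq start (RefSeq promoters, build GRCm38.p6). Capitals mark a CCAAT box (CCAAT, either strand) or a GC box (GGGCGG, either strand). The falling genes are Rab3d (chr9:21918254-21918433, minus strand), Rab20 (chr8:11478711-11478890, minus) and Rab40c (chr17:25919785-25919964, minus). The rising genes are Rab31 (chr17:65772823-65773002, minus) and Rab32 (chr10:10558278-10558457, minus). Rab6b is not shown, since its window lies wholly inside the gene as GENCODE starts it.
Rab3d: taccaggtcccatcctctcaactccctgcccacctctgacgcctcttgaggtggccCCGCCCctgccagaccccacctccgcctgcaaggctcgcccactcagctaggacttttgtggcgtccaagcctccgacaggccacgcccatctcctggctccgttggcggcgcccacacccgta
Rab20: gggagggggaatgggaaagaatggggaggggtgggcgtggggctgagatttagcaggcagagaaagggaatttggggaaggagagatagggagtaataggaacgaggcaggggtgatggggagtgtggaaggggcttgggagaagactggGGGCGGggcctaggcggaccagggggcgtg
Rab40c: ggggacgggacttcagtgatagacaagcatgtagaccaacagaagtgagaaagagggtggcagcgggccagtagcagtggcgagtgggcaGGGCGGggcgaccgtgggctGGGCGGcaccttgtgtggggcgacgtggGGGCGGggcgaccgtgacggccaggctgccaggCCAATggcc
Rab31: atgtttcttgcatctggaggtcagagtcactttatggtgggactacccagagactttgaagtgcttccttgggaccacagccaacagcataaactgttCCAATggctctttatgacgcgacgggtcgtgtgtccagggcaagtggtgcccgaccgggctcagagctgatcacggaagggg
Rab32: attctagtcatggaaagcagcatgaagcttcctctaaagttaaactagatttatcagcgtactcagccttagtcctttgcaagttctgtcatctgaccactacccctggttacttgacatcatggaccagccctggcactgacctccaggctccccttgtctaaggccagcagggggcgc

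The windows of Rab3d and Rab20 each held 1 GC box, that of Rab40c 3 GC boxes and 1 CCAAT box, that of Rab31 1 CCAAT box, and that of Rab32 held 0 of the motifs searched. The motifs were searched on both strands, and besides these were the E-box CACGTG, the cAMP response element TGACGTCA, the AP-1 site TGANTCA and the TATA box TATAAA. No match overlapped another in these 5 windows. Windows were found for 46 of the 55 Rab genes, 58 windows in all. A GC box was in 39.7% of them and in 21.1% of all 32851 windows of that length, and a CCAAT box in 36.2% against 25.03%. GC boxes were in 3 of 7 genes that rose, 6 of 11 that fell and 9 of 16 that did not pass, and CCAAT boxes in 4, 4 and 8 of the same. The E-box was in 5.17% of the Rab windows (all windows 3.69%), the AP-1 site in 1.72% (4.93%), the cAMP response element in 1.72% (0.584%) and the TATA box in 6.90% (8.37%).

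In the ER-Golgi and Golgi group 10 of 15 members were tested, of which 1 rose and 3 fell. Rab1a and Rab1b, which serve ER-to-Golgi transport, were among the most abundant Rab mRNAs. Rab1b stood at 127, 132 and 153 FPKM in control 1 to 3 and at 111, 128 and 99.9 FPKM in AlCl3 1 to 3. The groups overlapped, and Rab1b did not pass (log2 fold change -0.28, limma adjusted p = 0.11), though it did without AlCl3 2 (0.049), and after correction for GC content and length it was higher (0.23, 0.041). Rab1a did not pass, at 65.8, 60.5 and 64.4 FPKM in controls and 60.02, 59.03 and 66.9 FPKM in AlCl3 (log2 fold change -0.04, SE 0.11). After GC and length correction Rab1a fell by 0.39 on the log2 scale (0.0037). For that correction the deviation of each gene from its mean over the 6 libraries was fitted on GC content and gene length. The fit was made in each library and subtracted, which also removes such trends between replicates. Any difference between the groups that follows GC content or length is removed as well, whatever its source. Calls gained or turned after it therefore depend on that step and are no firmer than those of the main fit.

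Rab2a, which acts between the ER, the Golgi and late endosomes, was the member of this group that rose. Its levels were 87.8, 71.8 and 60.6 FPKM in controls and 116, 106 and 109 FPKM in AlCl3, so every AlCl3 library lay above every control. The log2 fold change was 0.60 (SE 0.15, limma adjusted p = 0.0069), and 0.32 after GC and length correction. Its processed pseudogene Gm5865 drew only 9 control and 14 AlCl3 reads, against 7945 and 11421 for Rab2a. Rab2b, with means of 0.356 FPKM (controls) and 0.235 FPKM (AlCl3), was not tested in the main fit, and 59.3% of its exon bases lie opposite Gm43766.

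Rab6b and Rab30 fell most in this group. Rab6b, the neuron-enriched relative of the Golgi regulator Rab6a, went from 13.1, 17.6 and 19.6 FPKM to 5.05, 5.81 and 5.93 FPKM, 3.001-fold lower by the ratio of means. All 3 AlCl3 values lay below the lowest control (log2 fold change -1.42, SE 0.15, limma adjusted p = 5.4e-05). Rab6b (ENSMUSG00000032549) lies on the plus strand of chromosome 9 from 103111787 to 103185276 in GRCm38. Rab6a itself stood at 27.5, 31.1 and 31.9 FPKM in controls and 31.3, 27.1 and 35.2 FPKM in AlCl3, with groups that overlapped, and after GC and length correction it was lower (log2 fold change -0.26, 0.047).

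Rab30, a Golgi-localised Rab, stood at 2.41, 2.47 and 3.06 FPKM in controls and 0.883, 0.733 and 1.03 FPKM in AlCl3. Its mean went from 2.64 to 0.881 FPKM and the groups did not overlap, while its log2 fold change of FPKM + 1 was -0.95 (limma adjusted p = 2.1e-04) and -1.49 with a pseudocount of 0.1. Rab33b, which acts at the Golgi and in autophagosome formation, fell from 10.7, 12.0 and 11.1 FPKM to 8.23, 7.47 and 9.30 FPKM (log2 fold change -0.40, limma adjusted p = 0.017). That call was lost without control 2 (0.077) or AlCl3 1 (0.063) and with TPM (0.17), adjusted p spanning 3.0e-04 to 0.17 over all alternatives. Its log2 fold change was -0.66 after GC and length correction.

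Rab18, a Rab of the ER and lipid droplets, Rab34, known from the Golgi and from cilia, and Rab39b, known for its part in neurons, did not pass. Rab18 had means of 31.2 ± 1.19 FPKM (controls) and 25.8 ± 2.33 FPKM (AlCl3, SD, n = 3 each). Rab34 held 39.5, 39.8 and 42.5 FPKM in controls and 33.1, 51.1 and 33.4 FPKM in AlCl3, the AlCl3 2 library lying above all others. Rab39b was at 2.53 ± 0.263 and 1.80 ± 0.579 FPKM, and it passed without AlCl3 3 (0.016). After GC and length correction Rab39b fell by 0.69 (0.0037) and Rab18 by 0.60 (4.7e-04) on the log2 scale, and Rab34 rose by 0.46 (0.00996).

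**Figure D2:**
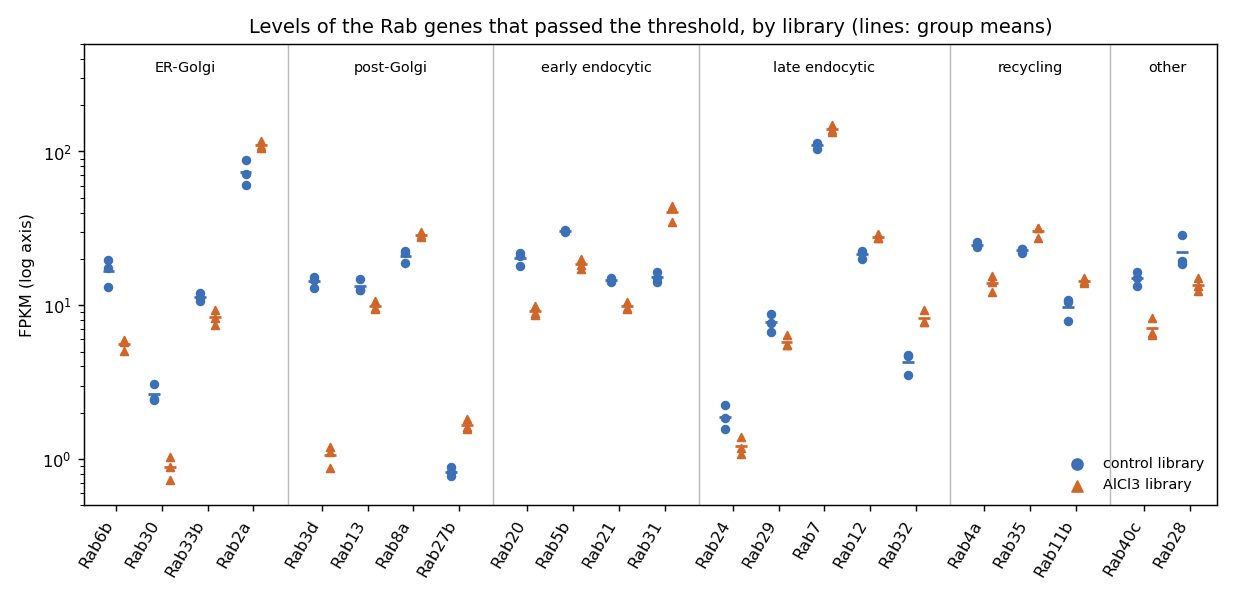
FPKM (log axis) of the 22 Rab genes that passed the threshold, with a point for each control library (circles) and each AlCl3 library (triangles), lines at the group means and role groups between the vertical lines. Rab3d shows the widest gap between the groups, from 14.3 FPKM on average in controls to 1.06 FPKM in AlCl3.

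In the post-Golgi and regulated secretion group 7 of 12 members were tested, of which 2 rose and 2 fell. Rab3d, which sits on secretory granules and takes part in regulated exocytosis, had the largest change of any Rab gene tested. It stood at 12.99, 14.6 and 15.3 FPKM in control 1 to 3 and at 0.880, 1.11 and 1.19 FPKM in AlCl3 1 to 3. The levels were 13.5-fold lower in AlCl3 by the ratio of means, with no overlap, and rested on 3057 reads in controls and 214 in AlCl3. The log2 fold change of FPKM + 1 was -2.89 (SE 0.12, limma adjusted p = 1.4e-06), and it ran from -3.76 to -2.80 over the alternatives. Rab3d (ENSMUSG00000019066) lies on the minus strand of chromosome 9 from 21907491 to 21918192 in GRCm38.

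The other Rab3 genes, best known from synaptic and endocrine vesicles, were low. Rab3a stood at 1.43, 0.692 and 2.04 FPKM in controls and 0.332, 0.562 and 1.10 FPKM in AlCl3, just over the filter, with groups that overlapped (log2 fold change -0.51, limma adjusted p = 0.088). It passed without control 2 (0.019) or AlCl3 3 (0.036). Rab3b and Rab3c held 10 and 7 reads over the controls and 2 and 0 over the AlCl3 libraries.

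Rab27b, which docks secretory vesicles and multivesicular bodies at the plasma membrane, went from 0.818, 0.776 and 0.883 FPKM to 1.61, 1.56 and 1.82 FPKM, 2.02-fold higher by the ratio of means. The groups did not overlap. Its log2 fold change was 0.54 on FPKM + 1 (limma adjusted p = 0.0028), 0.93 with a pseudocount of 0.1, and 0.31 after GC and length correction. Its relative Rab27a, with means of 0.445 FPKM (controls) and 0.359 FPKM (AlCl3), was not tested in the main fit.

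Rab8a, which carries cargo from the Golgi to the cell surface and the cilium, stood at 22.4, 21.8 and 18.8 FPKM in controls and 29.9, 27.6 and 28.4 FPKM in AlCl3. All AlCl3 libraries were higher (log2 fold change 0.43, limma adjusted p = 0.0088), with a log2 fold change of 0.28 after GC and length correction. Rab8b was lower in level and overlapped between groups, at 3.22, 3.47 and 4.04 FPKM and 3.97, 2.72 and 4.37 FPKM, and was lower after GC and length correction (log2 fold change -0.35, 0.022). Rab10, which moves cargo such as glucose transporters to the surface, was at 19.4 ± 0.157 FPKM in controls and 23.4 ± 2.46 in AlCl3 and did not pass (limma adjusted p = 0.079), though it did without AlCl3 2 (0.035).

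Rab13 fell. It stood at 12.6, 14.8 and 12.6 FPKM in controls and 9.56, 10.7 and 9.499 FPKM in AlCl3, with no overlap (log2 fold change -0.39, limma adjusted p = 0.017). The call was lost without control 2 (0.086), AlCl3 1 (0.074) or AlCl3 3 (0.059) and with TPM (0.14), adjusted p spanning 0.0031 to 0.14 over all alternatives.

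All 7 early endocytic members were tested, and 1 rose and 3 fell. Rab31, which carries cargo between the trans-Golgi network and endosomes, rose more than any other Rab gene tested. It stood at 14.1, 16.4 and 14.97 FPKM in controls and at 42.7, 34.9 and 44.3 FPKM in AlCl3, 2.68-fold higher by the ratio of means. The lowest AlCl3 value was well above the highest control (log2 fold change 1.36, SE 0.13, limma adjusted p = 2.5e-05). Rab31 (ENSMUSG00000056515) lies on the minus strand of chromosome 17 from 65651729 to 65772752 in GRCm38, 722 kb from Rab12, which also rose. Of the other 2 pairs of Rab genes within 1 Mb of each other, Rab29 fell beside Rab7b, which did not pass, and Rab7 rose beside Rab43, which was below the filter.

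Rab20, a Rab of endosomes and phagosomes that is induced by low oxygen, moved the other way. Its levels were 18.04, 20.9 and 21.8 FPKM in controls and 8.85, 9.84 and 8.66 FPKM in AlCl3, 2.22-fold lower, and every AlCl3 library lay below every control (log2 fold change -1.07, SE 0.12, limma adjusted p = 6.1e-05). Rab20 (ENSMUSG00000031504) lies on the minus strand of chromosome 8 from 11453518 to 11478710. The overlapping noncoding gene E230013L22Rik drew 21 control and 23 AlCl3 reads, against 1437 and 610 for Rab20.

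The Rab5 genes, which direct fusion at early endosomes, differed among themselves. Rab5b stood at 30.0, 30.2 and 31.0 FPKM in controls and 17.2, 18.4 and 19.9 FPKM in AlCl3, with no overlap (log2 fold change -0.69, SE 0.11, limma adjusted p = 4.7e-04). Rab5c, one of the 3 most abundant Rab mRNAs, was at 108, 131 and 138 FPKM and 133, 141 and 123 FPKM, and Rab5a at 14.2, 14.9 and 14.0 FPKM and 15.5, 14.2 and 16.4 FPKM. Both overlapped between the groups and did not pass (limma adjusted p = 0.64 and 0.49), though after GC and length correction Rab5c rose by 0.33 (0.028). Gm13991, a pseudogene 99.4% identical to Rab5b over 648 bases, drew 237 control and 157 AlCl3 reads, against 6500 and 3751 for Rab5b.

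Rab21, which takes part in integrin endocytosis, fell from 14.2, 15.1 and 14.4 FPKM to 9.44, 9.57 and 10.5 FPKM, with no overlap (log2 fold change -0.53, limma adjusted p = 0.0022), and by 0.89 on the log2 scale after GC and length correction. Rab22a, an early endosome relative of Rab31, was at 9.36 ± 1.13 and 9.20 ± 0.648 FPKM and passed only after GC and length correction (log2 fold change -0.19, 0.038).

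All 7 members of the late endosome, lysosome and autophagy group in the table were tested, and 3 rose and 2 fell. Rab7, which drives late endosomes to fuse with lysosomes, stood at 103, 111 and 114 FPKM in controls and 139, 135 and 148 FPKM in AlCl3. The AlCl3 values were all higher (log2 fold change 0.36, limma adjusted p = 0.025), but the call was lost without control 2 (0.070), AlCl3 1 (0.089) or AlCl3 3 (0.087) and after GC and length correction (0.053, log2 fold change 0.23), the alternatives giving adjusted p of 0.014 to 0.089. Rab7-ps1, 98.4% identical over 622 bases, drew 480 control and 522 AlCl3 reads, against 14549 and 17790 for Rab7.

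Rab32, known from lysosome-related organelles such as melanosomes and from mitochondria, rose from 3.50, 4.66 and 4.72 FPKM to 9.30, 7.77 and 7.77 FPKM. This was 1.93-fold higher with no overlap (log2 fold change 0.81, SE 0.14, limma adjusted p = 7.6e-04). Rab12, which is known from mouse cells to send transferrin receptor from recycling endosomes to lysosomes, rose from 19.9, 22.5 and 21.8 FPKM to 27.2, 27.4 and 28.9 FPKM (log2 fold change 0.36, limma adjusted p = 0.015). Its groups did not overlap, and the call was lost without AlCl3 1 (0.055) or AlCl3 3 (0.059), the alternatives giving adjusted p of 0.0097 to 0.059, and its log2 fold change was 0.24 after GC and length correction.

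The members that fell in this group had calls that changed with the processing. Rab29, which is known to recruit the kinase Lrrk2, went from 8.74, 7.70 and 6.73 FPKM to 5.53, 6.42 and 5.48 FPKM (log2 fold change -0.35, limma adjusted p = 0.038) and lost its call in 8 of 14 alternatives, without control 1 (0.090), control 2 (0.10), AlCl3 1 (0.13) or AlCl3 3 (0.11) among them. Rab24, linked to autophagy, went from 1.85, 2.23 and 1.57 FPKM to 1.07, 1.39 and 1.19 FPKM (-0.38, limma adjusted p = 0.034) and lost its call in 8 of 13, without control 1 (0.057), control 2 (0.14), AlCl3 1 (0.13) or AlCl3 3 (0.080) among them. After GC and length correction the log2 fold change of Rab24 was -0.06. Over the alternatives adjusted p ran from 0.0020 to 0.18 for Rab29 and from 0.025 to 0.655 for Rab24. Of the exon bases of Rab24, 62.4% lie opposite Prelid1, which drew 13768 control and 20662 AlCl3 reads against 193 and 117 for Rab24, so the level of Rab24 is uncertain. Rab9, which returns receptors from endosomes to the Golgi, and Rab7b overlapped between groups, at 20.99 ± 4.03 and 22.9 ± 1.41 FPKM and at 2.997 ± 0.516 and 3.02 ± 0.221 FPKM.

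In the recycling group 6 of 9 members were tested, of which 2 rose and 1 fell. Rab4a, which returns cargo quickly from early endosomes to the surface, fell from 24.2, 24.1 and 25.8 FPKM to 14.2, 15.5 and 12.3 FPKM. It was 1.76-fold lower with no overlap (log2 fold change -0.78, SE 0.12, limma adjusted p = 4.1e-04). Rab11b, which serves the slower route through the recycling endosome, rose from 7.95, 10.5 and 10.8 FPKM to 14.4, 13.9 and 15.1 FPKM, also with no overlap (log2 fold change 0.54, limma adjusted p = 0.0066, and a log2 fold change of 0.35 after GC and length correction). Rab11b-ps2, 99.8% identical over 654 bases, drew 518 control and 642 AlCl3 reads, against 3047 and 4303 for Rab11b, so the level of Rab11b is less certain.

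Rab11a, the close relative of Rab11b, overlapped between groups, at 14.0, 10.8 and 11.6 FPKM in controls and 12.4, 11.7 and 11.9 FPKM in AlCl3 (log2 fold change -0.01). After GC and length correction it fell by 0.33 on the log2 scale (limma adjusted p = 0.0092). Rab35, which acts in fast recycling at the plasma membrane, rose from 21.9, 23.2 and 23.4 FPKM to 31.6, 32.0 and 27.4 FPKM (log2 fold change 0.39, limma adjusted p = 0.013), with no overlap. That call was lost without AlCl3 1 (0.071), the alternatives giving adjusted p of 3.2e-04 to 0.071, and the log2 fold change was 0.61 after GC and length correction. Rab14, which works between the Golgi and endosomes, and Rab15, an endosomal Rab of neural cells, did not pass (limma adjusted p = 0.12 and 0.19), though Rab15 did after GC and length correction (log2 fold change 0.51, 0.0049).

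Among the members with ciliary or other roles, 3 of 5 were tested and 2 of them fell. Rab40c, which carries a SOCS box and serves as a substrate receptor of a cullin ubiquitin ligase, stood at 13.3, 16.4 and 15.1 FPKM in controls and 6.37, 8.21 and 6.63 FPKM in AlCl3. The AlCl3 libraries were all lower, 2.11-fold by the ratio of means (log2 fold change -0.98, SE 0.13, limma adjusted p = 2.0e-04). Rab28, a ciliary Rab of photoreceptors, went from 28.6, 19.4 and 18.5 FPKM to 13.3, 15.1 and 12.5 FPKM, control 1 lying well above the other controls (log2 fold change -0.64, limma adjusted p = 0.0087, and a log2 fold change of -0.97 after GC and length correction). Rab23, an antagonist of hedgehog signalling in the mouse embryo, was at 4.26 ± 0.504 and 3.97 ± 0.460 FPKM and passed only after GC and length correction (log2 fold change -0.27, 0.017).

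Rab40b, the close relative of Rab40c, was below the filter, yet its reads divided by group. It held 30 reads over the 3 controls and 0 over the 3 AlCl3 libraries, which is 9.502-fold lower when a floor of 3 reads stands for the AlCl3 group. That figure takes the control reads as exact and leaves out the spread between libraries, so it is no firm bound. Rab4b, also below the filter, had groups that did not overlap either, with 20 reads over the controls and 8 over the AlCl3 libraries. No share of genes below the filter that separate in this way was taken. The other members below the filter were Rab36, Rab33a, Rab43, Rab2b, Rab19, Rab27a, Rab3b, Rab3c, Rab26, Rab37, Rab4b, Rab25, Rab17 and Rab42. Rab36 had the highest group mean among these, 0.480 FPKM in controls. Rab25 and Rab17, known from epithelial cells, were at no more than 0.252 and 0.0585 FPKM in any library.

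Close relatives were then compared within each library, where the ratio of their FPKM values does not depend on library size. In 7 such ratios, 5 separated the groups with no overlap. The numerators of these 5, Rab3d, Rab5b, Rab6b and Rab11b, had themselves passed with no overlap in the same libraries. The ratios are therefore no separate support for those calls, and no share of such ratios over other pairs of genes was taken. The ratio of Rab6b to Rab6a was 0.479, 0.566 and 0.616 in controls and 0.161, 0.214 and 0.168 in AlCl3, a difference of -1.62 on the log2 scale. That of Rab5b to Rab5c was 0.278, 0.231 and 0.225 in controls and 0.129, 0.131 and 0.162 in AlCl3, a difference of -0.80. Rab5b to Rab5a went from 2.12 ± 0.0913 to 1.20 ± 0.0929 (SD, n = 3 each).

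The ratio of Rab11b to Rab11a went up, from 0.567, 0.979 and 0.930 to 1.16, 1.19 and 1.27, so that Rab11b passed Rab11a in level in the 3 AlCl3 libraries. Rab3d stood between 7.49 and 21.1 times Rab3a in controls and between 1.09 and 2.65 times in AlCl3. The ratios of Rab1a to Rab1b and of Rab8a to Rab8b overlapped between groups. By an exact permutation test, two-sided, p was 0.1 for each of the 5 ratios with no overlap, the smallest that 3 against 3 values allow, and 0.2 for the other 2, or 0.14 and 0.2 with Benjamini-Hochberg adjustment over the 7. Of the exon bases of Rab6a, 19.0% lie opposite Mrpl48, which drew 549 control and 1434 AlCl3 reads against 5723 and 5685 for Rab6a.

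**Figure D3:**
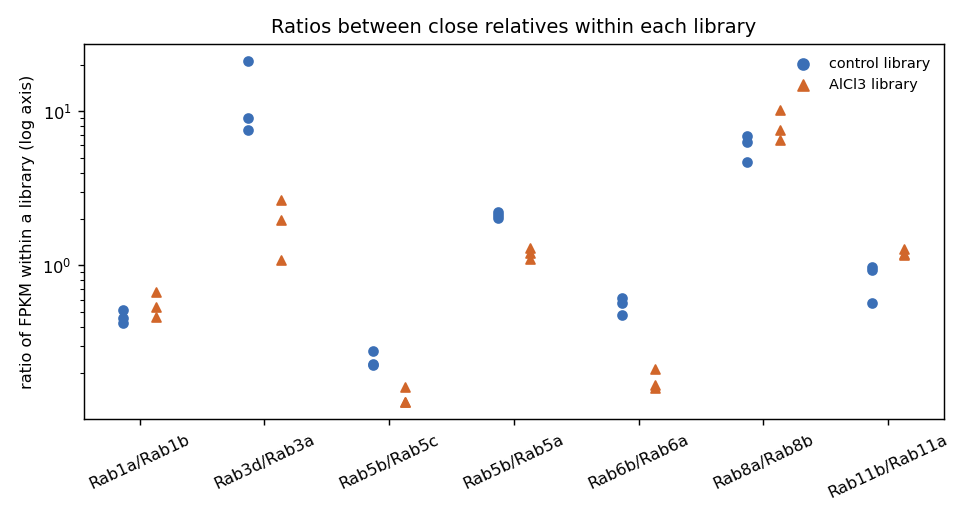
Ratio of FPKM between close relatives within each library (log axis), with circles for the 3 control and triangles for the 3 AlCl3 libraries. Rab3d/Rab3a, Rab5b/Rab5c, Rab5b/Rab5a and Rab6b/Rab6a are lower in every AlCl3 library and Rab11b/Rab11a is higher, while Rab1a/Rab1b and Rab8a/Rab8b overlap.

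In level, 5 genes dominated. Rab5c, Rab1b, Rab7, Rab2a and Rab1a made up between 50.1% and 55.2% of the summed Rab FPKM in each library. In controls Rab1b had the highest mean, 138 FPKM, followed by Rab5c at 126 and Rab7 at 109.5 FPKM, and in AlCl3 Rab7 led with 141 FPKM, followed by Rab5c at 132 and Rab1b at 113 FPKM. Neighbours in these orders overlapped in their libraries, but Rab1b lay wholly above Rab7 in controls and wholly below it in AlCl3. Rab2a followed at 73.4 and 110.3 FPKM and Rab1a at 63.6 and 62.0 FPKM. By role, the summed FPKM of the late endosome, lysosome and autophagy group was 165, 172 and 169 in controls and 209, 202 and 218 in AlCl3, with Rab7 as its main part. That of the ciliary and other group went from 46.6, 40.7 and 38.8 to 23.3, 27.4 and 24.04, and that of post-Golgi and regulated secretion from 73.2, 75.9 and 73.7 to 70.3, 65.4 and 72.7. These 3 sums did not overlap between groups on the FPKM scale, while the ER-Golgi, early endocytic and recycling sums did. For post-Golgi and regulated secretion the gap was narrow, from 73.2 in the lowest control to 72.7 in the highest AlCl3 library.

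**Figure D4:**
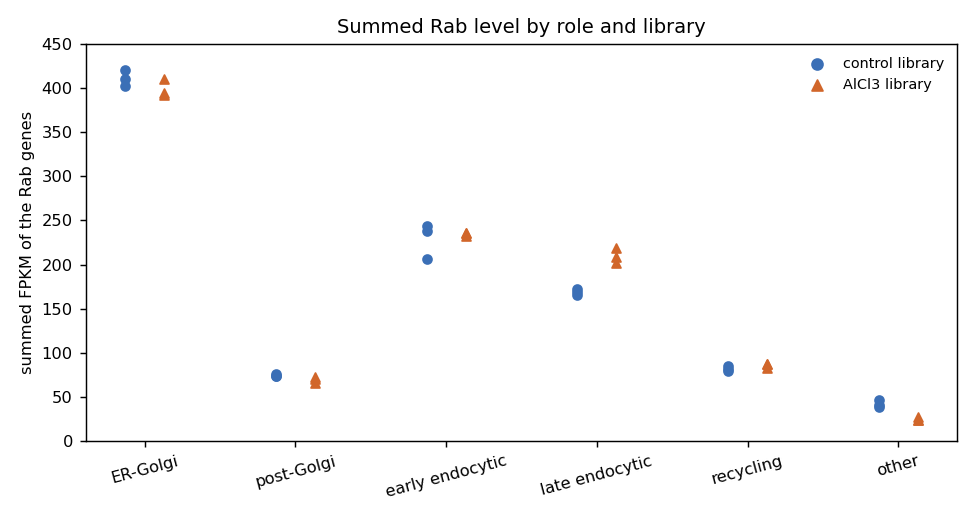
Summed FPKM of the Rab genes of each role in each library, with circles for the 3 control and triangles for the 3 AlCl3 libraries. The late endocytic sum lies between 165 and 172 in controls and between 202 and 218 in AlCl3, while the ER-Golgi, early endocytic and recycling sums overlap.

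Across the 40 Rab genes tested, log2 fold change had a Pearson correlation of -0.18 with the GC content of the longest transcript and of 0.20 with the mean log2 level, against a correlation with GC content of -0.32 over 11183 genes. These are descriptions over genes measured in the same 6 libraries. Transcript GC content ran from 36.8% in Rab28 to 59.5% in Rab34. After GC and length correction 12 Rab genes were higher and 20 lower, or 80.0% called, beside 67.3% of all genes (33.7% higher and 33.6% lower). Their median log2 fold change was then -0.21 and that of all genes 0.00. The ER-Golgi group, with a median GC content of 44.5%, then had 3 higher and 7 lower of 10.

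The machinery that handles Rab proteins was read from the same fit. Of 137 listed regulators and effectors 107 were tested, and 15 rose and 48 fell, or 14.0% and 44.9%, beside 31.2% and 30.2% of all genes. Their median log2 fold change was -0.24, beside 0.03 for all genes tested. After GC and length correction 25 were higher and 51 lower, with a median of -0.19, beside 33.7% higher and 33.6% lower of all genes. With TPM 16 were higher and 38 lower, beside 33.4% and 24.1% of all genes.

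All 8 genes for prenylation and membrane cycling passed, beside 61.3% of all genes, 5 higher and 3 lower. After GC and length correction 4 were higher and 2 lower, and with TPM 5 and 2. Rabac1, a Golgi protein that binds prenylated Rab proteins, fell from 185, 104 and 243 FPKM to 42.9, 58.5 and 37.6 FPKM (log2 fold change -1.85, limma adjusted p = 4.5e-04), the controls being widely spread and yet all above the AlCl3 libraries. Rabggta, the alpha subunit of the geranylgeranyl transferase, fell by 0.34 on the log2 scale (limma adjusted p = 0.025). That call ended without control 2 (0.093), AlCl3 1 (0.11) or AlCl3 3 (0.055), with TPM (0.21) and after GC and length correction (0.41), the alternatives giving adjusted p of 0.023 to 0.41.

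Rabif, a chaperone of nucleotide-free Rab proteins, rose from 7.20, 6.04 and 6.11 FPKM to 13.8, 14.8 and 14.4 FPKM (log2 fold change 1.04, limma adjusted p = 5.6e-05). The escort protein genes Chm and Chml, whose products present new Rab proteins to the transferase, rose by log2 fold changes of 0.67 and 0.74. These were 0.37 and 0.41 after GC and length correction, and that of Chml was 1.28 with a pseudocount of 0.1.

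Among exchange factors 4 of 37 rose and 14 fell. The lowest was Trappc6a, a subunit of the TRAPP complexes that act on Rab1, from 66.0, 59.7 and 68.6 FPKM to 9.58, 11.5 and 7.92 FPKM, 6.70-fold lower (log2 fold change -2.64, SE 0.14, limma adjusted p = 2.3e-06). Dennd3, an exchange factor for Rab12, fell from 3.10, 4.92 and 5.03 FPKM to 1.00, 0.787 and 1.14 FPKM, and Rgp1, part of an exchange factor for Rab6, from 10.3 ± 0.584 to 3.96 ± 0.731 FPKM. Both were lower in every AlCl3 library.

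Ccz1, which with Mon1 forms the exchange factor for Rab7, rose from 6.22, 5.63 and 7.13 FPKM to 17.7, 14.9 and 19.0 FPKM, 2.72-fold higher (log2 fold change 1.31, SE 0.13, limma adjusted p = 3.8e-05). Its partner Mon1a fell from 5.71, 7.17 and 8.34 FPKM to 2.95, 3.67 and 2.43 FPKM, with no overlap (log2 fold change -1.004, limma adjusted p = 6.0e-04, and a log2 fold change of -0.52 after GC and length correction), and Mon1b did not pass (log2 fold change 0.05). Trappc13, another TRAPP subunit, rose 2.89-fold from 3.16 ± 0.292 FPKM by the ratio of means.

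Among GTPase-activating proteins 3 of 30 rose and 15 fell. Sgsm2, Evi5l and Sgsm3, all of which carry a TBC domain, fell by 1.29, 1.21 and 1.18 on the log2 scale, and their AlCl3 libraries all lay below the controls. Sgsm2 and Evi5l had log2 fold changes of -0.86 and -0.70 after GC and length correction. Evi5, linked to Rab11, rose from 3.63, 4.07 and 5.08 FPKM to 7.43, 5.43 and 8.13 FPKM (log2 fold change 0.60, limma adjusted p = 0.011), and 0.29 after that correction. Tbc1d15, which acts on Rab7, and Rabgap1, which acts on Rab6, had groups that overlapped, and each lost its call in 6 alternatives, with adjusted p from 0.0091 to 0.70 and from 0.0083 to 0.17. Without control 1, control 2, AlCl3 1 or AlCl3 3 these were 0.095, 0.13, 0.13 and 0.12 for Tbc1d15 and 0.10, 0.14, 0.12 and 0.17 for Rabgap1.

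Among effectors 3 of 32 rose and 16 fell. Rilpl2, which binds phosphorylated Rab8 and Rab10, fell from 16.1, 17.7 and 20.1 FPKM to 6.76, 8.27 and 6.81 FPKM (log2 fold change -1.20, limma adjusted p = 5.2e-05). Rab11fip5, a Rab11 effector, and Lrrk1, a kinase of Rab7, fell by 1.04 and 1.02 on the log2 scale, with log2 fold changes of -0.58 and -0.67 after GC and length correction. Vps41, a subunit of the tethering complex that works with Rab7 at lysosomes, rose from 2.40, 2.81 and 3.36 FPKM to 6.42, 4.92 and 7.90 FPKM (log2 fold change 0.93, limma adjusted p = 0.0011). Vps39, another subunit of that complex, had means of 3.62 ± 0.502 FPKM in controls and 2.53 ± 0.351 FPKM in AlCl3 and fell by 0.39 on the log2 scale (limma adjusted p = 0.032). That call ended without control 2 (0.091), control 3 (0.11), AlCl3 1 (0.12) or AlCl3 2 (0.063), without a filter (0.078) and with TPM (0.18), while the lowest adjusted p was 0.0025. The Rab5 effector genes Appl1 and Rbsn rose by log2 fold changes of 0.69 and 0.47. That of Appl1 was 0.40 after GC and length correction, and the call of Rbsn was lost without AlCl3 3 (0.055), the alternatives giving adjusted p of 0.0013 to 0.055. Other Rab5 effector genes did not rise: Appl2, the relative of Appl1, fell by 0.57 on the log2 scale (limma adjusted p = 0.0046), and Eea1 and Rabep1 did not pass (log2 fold changes -0.21 and 0.13), though Eea1 had a log2 fold change of -0.48 after GC and length correction (0.0032).

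**Figure D5:**
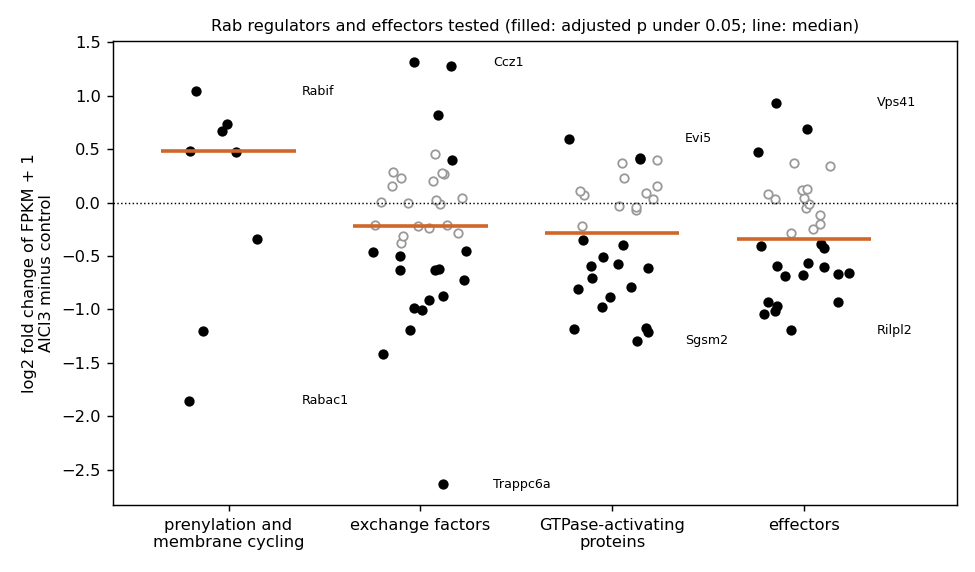
Log2 fold change of FPKM + 1 (AlCl3 minus control, vertical axis) of the 107 Rab regulators and effectors tested, in 4 lists, with filled points for limma adjusted p under 0.05, lines at the list medians and the names of the highest and lowest gene. The medians of exchange factors, GTPase-activating proteins and effectors lie below zero at -0.22, -0.29 and -0.34, and that of prenylation and membrane cycling at 0.48.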

How the data were processed

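RNA-seq covered 3 control and 3 AlCl3 libraries of the TM4 line. The deposited values are FPKM, made by the authors, 1 column per library, as read from the table's name and values. The submitters' processing notes name HISAT2 2.1.0 and GRCm38. For the counter, annotation, strand setting and filters nothing was given in the sources used here, so reads from overlapping genes on opposite strands may not be told apart. GENCODE mouse release 21 (GRCm38) held 24300 of the 24354 identifiers. Multiplied by exon length, the low FPKM values were whole multiples of a step, and in every library 98.9% of genes gave whole reads to within 0.01. Per read and 1 kb the step was 0.0568 to 0.0736 FPKM.

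Genes with a mean of at least 1 FPKM entered a limma fit (version 3.58.1, R 4.3.3) of log2(FPKM + 1) that lets the variance follow the mean, with no covariate and two-sided Benjamini-Hochberg adjusted p-values over all 11202 genes tested (threshold 0.05). Fold changes on this scale understate those of low genes. The step was tested on simulated data, where false calls were a somewhat larger share of all calls than the threshold of 0.05. Changes of 1.5-fold or less were often missed there. That simulation changed far fewer genes than passed here and gave all genes the same relative spread beyond counting noise. Its shares therefore need not hold for these data. Ratios between relatives were compared with exact permutation tests (SciPy 1.17.1). Near-identical copies were transcripts with at least 90% identity over at least 300 bases (BLAST 2.17.0).

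Values in every library are given for the 8 highest and 8 lowest fold changes among called members, the 5 highest levels, and subfamilies whose members differ in their calls, and up to 3 genes in each direction from each list of regulators. Some genes that this rule would name are not reported here. Other members given by library were chosen after their values were seen, as were Rab40b and Rab4b, which were named for their reads. Mon1a, Mon1b, Vps39, Appl2, Eea1 and Rabep1, partners or relatives of named regulators, were also added after their values were seen. The members and lists were chosen with earlier results of these data known. The alternatives were another pseudocount, 2 other filters, TPM and median-ratio scaling, removal of the trend with GC content and length, a replicate block, each library left out, and voom in limma on the recovered reads, which was added after seeing the data.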

Additional observations from a re-analysis of the deposited data

How the results depend on the processing

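The counts of Rab genes kept within 1.5 times of 9 higher and 13 lower in all alternatives but 1: with the GC and length trend removed, 20 fell. In that alternative 25 regulators and effectors rose in place of 15, and the median log2 fold change of the Rab genes was -0.21 in place of -0.03. Rescaling to TPM moved that median to 0.0912 and the median of all genes from 0.03 to 0.14. Removing the GC and length trend also turned 4 Rab genes that had not passed, to log2 fold changes of 0.23 for Rab1b (limma adjusted p = 0.041), 0.46 for Rab34 (0.00996), -0.26 for Rab6a (0.047) and -0.35 for Rab8b (0.022). The cause was not tested. Leaving out 1 library at a time gave 6 to 10 Rab genes higher and 9 to 14 lower, 5792 to 7052 of all genes called, 12 to 20 regulators and effectors higher and 41 to 49 lower, and a Rab median between -0.07 and 0.00. Of the 22 called Rab genes, 15 kept their call in every alternative in which they were tested, and 7 lost it in at least 1. Of the 18 that did not pass, 14 passed in at least 1. Same-numbered replicates had correlations of their deviations from the group means of 0.202, 0.097 and 0.385, while those of unlike numbers ran from -0.363 to 0.168. Each library correlated best with its own number except AlCl3 2. The labels do not state that the numbers pair cultures, so the main fit left them out. Whether same-numbered libraries share a batch is not known. With the replicate block 7375 genes passed in place of 6869, and 9 Rab genes rose and 15 fell, Rab39b (limma adjusted p = 0.046) and Rab3a (0.025) being added. Count tests with edgeR and DESeq2 were not run. The deposited values are FPKM, and on the recovered reads only voom was used. Members below the filter were left out of the main fit, and Rab3b, Rab3c, Rab17 and Rab19 held few reads. Without a filter all 55 Rab genes were tested, and 9 were higher and 13 lower. That is 40.0%, beside 30.7% of all 24354 genes. Rab24 (limma adjusted p = 0.086) and Rab29 (0.068) lost their calls there, so the 13 lower included members below the filter.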
